A study of Homo sapiens with 36 samples.

Results

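The 10 heat shock genes described here, of the cytosol and the mitochondria, were followed in HepG2-IGF1R-KO cells given insulin in normal or insulin-resistant medium. They are the transcription factor HSF1, the inducible HSP70 chaperones HSPA1A and HSPA1B, their constitutive relative HSPA8, the partners DNAJB1 and HSPH1, the HSP90 chaperone HSP90AA1, the small chaperone HSPB1, and the mitochondrial folding chamber genes HSPD1 and HSPE1. The rule names the genes and uses no measured value, although earlier results of these data were known, and the members were found by Ensembl identifier: 10 of the 57771 genes in the deposited table, all 10 with enough counts to be tested. Their transcripts were set beside 41 other cytosolic chaperones, 14 other mitochondrial chaperones and proteases, and 20 chaperones of the endoplasmic reticulum (ER).

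RNA-seq was done on 36 libraries in 4 groups of 9, called biological replicates in the labels. All cells were HepG2, a human hepatoma line labelled as hepatocyte, with the IGF1R-KO genotype, so no group had an intact gene as a control, and the labels do not say whether the line was 1 clone. Cells were in normal or insulin-resistant medium, and the titles give 72 h for all 36 libraries. The insulin-resistant medium held glucose at 20 mM, fatty acids at 0.5 mM (oleic, linoleic and palmitic) and human insulin at 1 nM. In each medium the cells were untreated or received human insulin at 3 nM over 18 h. Removal of the 1 nM insulin from untreated cells in insulin-resistant medium is not stated. The study's stated question is how these cells respond to insulin in each medium.

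The libraries held between 26.6M and 116.8M counts, with a median of 64.6M. IGF1R transcript was present in every library at 77.8 to 134 CPM (counts scaled to a common library total), which does not check the edit because gene counts can include transcripts that carry it. The libraries did not look like one cell population. In 30 of them COL1A1, a fibrillar collagen of stromal cells, was at 8071 to 31870 CPM and DCN, another stromal gene, at 42.1 to 559 CPM. In the other 6 libraries, which were insulin-stimulated replicates 4 to 6 of normal medium and untreated replicates 1 to 3 of insulin-resistant medium, COL1A1 was at 0.784 to 1.70 CPM and DCN at 0. The summed level of 12 stromal markers was 46.6 to 98.6 CPM in the 6 libraries, with 3 of 12 markers above 1 CPM in each set of replicates, and 20744 to 69113 CPM in the 30, with 12 of 12 above 1 CPM. The summed level of 12 hepatocyte markers was 27879 to 33255 CPM in the 6, above the 10367 to 24811 CPM of the 30. Endothelial markers summed to 0.947 to 4.68 CPM and leukocyte markers to 343 to 2443 CPM over all libraries. In bulk RNA, fewer cells of a type and less RNA per cell cannot be told apart. The main results are therefore given with all 36 libraries and without the 6. The 6 made up 2 whole sets of 3 replicates (1 to 3, 4 to 6 or 7 to 9), whereas each p-value rests on 9 libraries a group as if none shared a source. The calls on the heat shock genes are therefore also given from a fit on summed sets, with 3 sums a group.

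Heat shock proteins bind unfolded protein and keep it from aggregating. When unfolded protein builds up in the cytosol, HSF1 is released from chaperones, forms trimers and binds heat shock elements, which are alternating repeats of the bases GAA and TTC, in the promoters of chaperone genes. The ER answers to its own stress sensors and to another promoter element, so the 2 compartments can respond apart from each other. In hepatocytes, which make much secreted protein, insulin is a known stimulus of protein synthesis.

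The promoters of 6 genes are shown because the results below set heat shock genes apart from the ER chaperone HSPA5 (BiP). They are RefSeq promoter windows of 300 bases, 250 before to 50 after each annotated gene start, on the build GRCh38.p14, written 5′ to 3′ on the strand of the gene. Capitals mark a heat shock pair, GAANNTTC or TTCNNGAA, in the heat shock genes and the ER stress element, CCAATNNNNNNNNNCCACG, in HSPA5. The windows are chr6:31815293-31815592 (plus strand) for HSPA1A, chr6:31827488-31827787 (plus) for HSPA1B, chr19:14518348-14518647 (minus) for DNAJB1, chr2:197499791-197500090 (minus) for HSPD1, chr2:197500129-197500428 (plus) for HSPE1 and chr9:125241294-125241593 (minus) for HSPA5. DNAJB1 and HSPD1 each have other annotated starts, which are not shown.
HSPA1A: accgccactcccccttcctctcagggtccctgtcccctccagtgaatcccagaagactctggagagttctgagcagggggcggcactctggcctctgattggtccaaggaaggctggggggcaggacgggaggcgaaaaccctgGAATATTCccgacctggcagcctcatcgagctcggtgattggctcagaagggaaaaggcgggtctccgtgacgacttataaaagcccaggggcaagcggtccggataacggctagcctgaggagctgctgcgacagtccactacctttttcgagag
HSPA1B: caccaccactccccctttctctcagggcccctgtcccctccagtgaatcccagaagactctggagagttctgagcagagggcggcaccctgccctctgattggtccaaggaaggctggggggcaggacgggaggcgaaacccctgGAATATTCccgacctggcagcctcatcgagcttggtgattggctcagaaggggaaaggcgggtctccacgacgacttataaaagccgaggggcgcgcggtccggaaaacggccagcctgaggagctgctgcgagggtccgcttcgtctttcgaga
DNAJB1: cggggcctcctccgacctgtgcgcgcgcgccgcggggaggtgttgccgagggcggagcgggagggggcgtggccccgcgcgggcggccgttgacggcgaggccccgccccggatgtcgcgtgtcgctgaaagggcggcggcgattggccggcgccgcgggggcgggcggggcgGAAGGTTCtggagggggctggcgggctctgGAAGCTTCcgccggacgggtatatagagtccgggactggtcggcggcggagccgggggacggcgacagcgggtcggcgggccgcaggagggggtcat
HSPD1: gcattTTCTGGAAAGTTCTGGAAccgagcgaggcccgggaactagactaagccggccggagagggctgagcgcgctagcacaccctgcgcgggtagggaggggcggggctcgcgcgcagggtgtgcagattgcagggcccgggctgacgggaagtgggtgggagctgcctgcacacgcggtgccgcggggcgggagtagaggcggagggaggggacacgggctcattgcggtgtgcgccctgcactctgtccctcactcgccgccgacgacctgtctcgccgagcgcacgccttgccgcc
HSPE1: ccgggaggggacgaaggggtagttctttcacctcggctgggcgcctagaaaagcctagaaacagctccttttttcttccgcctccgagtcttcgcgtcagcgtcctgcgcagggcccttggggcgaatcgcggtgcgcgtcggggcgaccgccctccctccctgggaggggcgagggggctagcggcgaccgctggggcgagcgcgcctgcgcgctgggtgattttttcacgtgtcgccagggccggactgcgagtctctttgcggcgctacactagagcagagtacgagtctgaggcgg
HSPA5: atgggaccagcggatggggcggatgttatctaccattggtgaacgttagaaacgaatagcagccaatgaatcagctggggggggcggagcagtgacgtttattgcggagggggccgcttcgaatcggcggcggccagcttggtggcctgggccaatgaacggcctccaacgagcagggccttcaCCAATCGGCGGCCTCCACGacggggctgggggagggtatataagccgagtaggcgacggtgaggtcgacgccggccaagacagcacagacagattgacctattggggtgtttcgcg

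A heat shock pair on either strand was found in 8 of 13 windows of 9 heat shock genes (61.5%), against 13.5% of all 35116 RefSeq windows. HSF1 was left out of this search. The 3-unit form, GAANNTTCNNGAA or TTCNNGAANNTTC, which contains overlapping pairs, was in 3 of the 13 windows (HSPA8, HSP90AA1 and HSPD1) and in 0.49% of all windows. HSPA1A and HSPA1B hold the same pair, GAATATTC, starting 106 and 105 bases before the gene start, and their windows are alike at 277 of 301 aligned positions (92%). DNAJB1 has GAAGGTTC and GAAGCTTC within 77 bases of its start, and HSPD1 has 3 overlapping pairs that begin 245 bases before the start shown. HSPE1 and HSPH1 have none in these windows. HSPD1 and HSPE1 stand head to head on opposite strands, and another HSPD1 window shares 204 bases with that of HSPE1. The ER stress element, also searched on both strands, was in 0 of the 13 windows and in 0.0769% of all windows. It was in 8 of 28 windows of the ER chaperones, or 6 of the 19 ER genes searched. HSPA5 holds it, while the windows of HYOU1 and SDF2L1 do not. These matches describe letters and do not show binding.

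Insulin in normal medium moved the heat shock genes in both directions, with the inducible HSP70 chaperones lower and HSF1 higher, while nearly all ER chaperones rose. Of the 10 genes, 6 passed the test, with HSF1, HSPH1 and HSPD1 higher and HSPA1A, HSPA1B and DNAJB1 lower. The test was edgeR's quasi-likelihood test over 17983 genes with adjusted p under 0.05, which called 35.2% of all genes (24.9% higher, 10.2% lower). Without the 6 libraries, 4 of the 10 passed, with HSF1 higher and HSPA1A, HSPA1B and DNAJB1 lower, against 33.4% of all genes (15.4% higher, 18.1% lower). With summed sets 0 of the 10 passed, but neither the share of all genes nor the other chaperone lists were read from that fit. In insulin-resistant medium, insulin changed none of the 10 by the same test, which also called 0% of all genes there. At an unadjusted p under 0.05 it gave 0 of the 10 and 4490 of all genes (25%), and DESeq2 gave 0 of the 10 and 89 of all genes (0.515%). Levels below are CPM after TMM scaling over all 36 libraries, which adjusts each library total so that most genes are even. Fold changes are log2 values ± their standard error. Each fit on fewer libraries or on summed sets had its own TMM scaling, so its values are not on the scale of the levels shown.

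**Figure D1:**
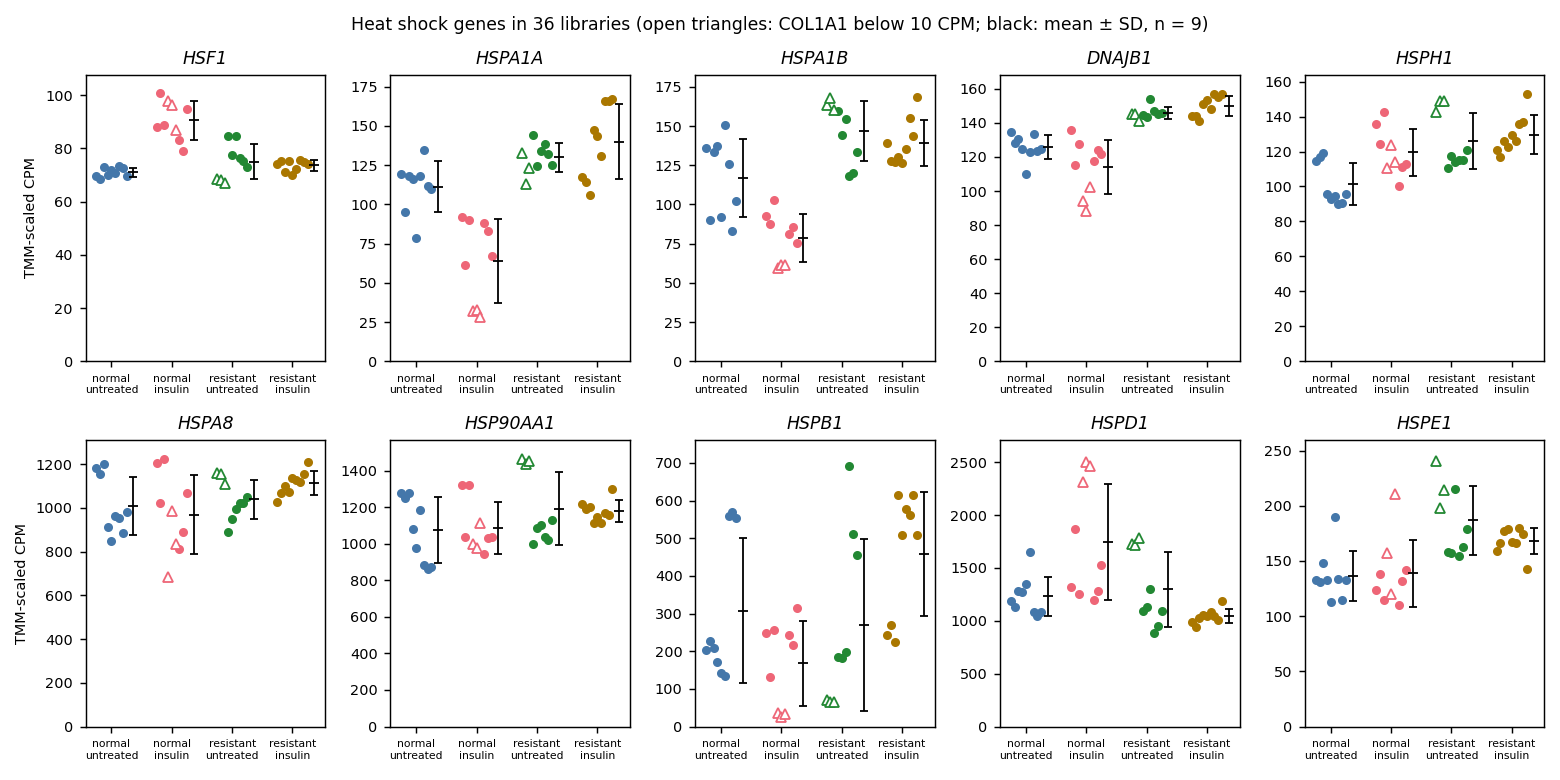
TMM-scaled CPM (vertical axis, from 0) of each heat shock gene in the 4 groups of 9 libraries, 1 point per library, with the mean ± SD in black; open triangles are the 6 libraries with COL1A1 below 10 CPM. HSF1 in insulin-stimulated cells in normal medium lies above all untreated libraries in that medium, the HSPA1A triangles of that group lie at 28.4 to 32.6 CPM, and all HSPB1 triangles lie below all other points.

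HSF1, the master regulator of the cytosolic heat shock response, was at 68.3 to 73.4 CPM (median 70.9) without insulin and 79.1 to 101 CPM (median 88.6) with it in normal medium. Those ranges did not overlap, as for 8.45% of all genes (12.1% without the 6 libraries). In insulin-resistant medium it was at 67.1 to 84.5 CPM (median 75.3) untreated and 69.8 to 75.7 CPM (median 74.1) with insulin. HSF1 thus rose with insulin in normal medium, by 0.36 ± 0.04 (adjusted p = 1.04e-08), and by 0.22 ± 0.04 (adjusted p = 0.000113) without the 6 libraries. Within batches the same value was 0.15 (adjusted p = 0.222, 22 April) and 0.31 (adjusted p = 0.0527, 11 April). In normal medium with insulin, the 22 April libraries include replicate 5, and the 11 April libraries are replicates 6 and 9 only. Replicates 5 and 6 are among the 6 libraries with almost no stromal transcript. With insulin present, HSF1 was lower in insulin-resistant than in normal medium, by -0.26 ± 0.04 (adjusted p = 5.51e-06), but with the opposite sign under hepatocyte scaling, given below. The 2 groups did not overlap, as for 12.2% of all genes (15.1% without the 6 libraries). The insulin response of HSF1 differed between the media by -0.34 ± 0.06 (adjusted p = 3.15e-05), and by -0.26 (adjusted p = 0.00296) without the 6. With summed sets HSF1 passed in none of the 3, at 0.24 (adjusted p = 0.233) for insulin in normal medium, -0.22 (adjusted p = 0.230) for the medium with insulin present and -0.30 (adjusted p = 0.391) for the difference.

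HSPA1A and HSPA1B, the stress-inducible cytosolic HSP70 pair, moved in the direction opposite to HSF1 with insulin in normal medium. HSPA1A was at 78.3 to 134 CPM (median 116) without insulin and 28.4 to 91.6 CPM (median 66.8) with it in normal medium. In insulin-resistant medium it was at 113 to 144 CPM (median 132) untreated and 106 to 167 CPM (median 144) with insulin. The insulin-stimulated group in normal medium was the low one, and its 9 libraries lay below all 18 in insulin-resistant medium. Between the 2 media with insulin present, ranges that do not overlap were found for 12.2% of all genes (15.1% without the 6 libraries). Within the low group, replicates 4 to 6, which had almost no stromal transcript, were lowest at 28.4 to 32.6 CPM, against 61.6 to 91.6 CPM in the other 6. The 3 untreated libraries in insulin-resistant medium that also lacked stromal transcript were at 113 to 133 CPM.

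HSPA1A fell with insulin in normal medium by 0.84 ± 0.18 on the log2 scale (adjusted p = 0.000259), and by 0.62 ± 0.11 (adjusted p = 8.59e-05) without the 6 libraries. Within batches the change was -0.76 (adjusted p = 0.0632, 22 April) and -1.20 (adjusted p = 0.0661, 11 April), the same direction with neither below the threshold. The 11 April libraries with insulin in normal medium were replicate 6, which is among the 6, at 28.4 CPM and replicate 9 at 66.8 CPM. With insulin present, HSPA1A was 1.19 ± 0.19 higher in insulin-resistant than in normal medium (adjusted p = 7.52e-06), and 0.90 (adjusted p = 1.76e-06) without the 6. In insulin-resistant medium with insulin it was at 106 to 117 CPM in replicates 1 to 3 and 131 to 167 CPM in replicates 4 to 9. Replicates 4 to 9 were also highest in stromal transcript, as described below for HSPB1. The part of this in the medium comparison was not tested. The response to insulin differed between media by 0.96 ± 0.26 (adjusted p = 0.00465). In untreated cells the medium gave 0.23 ± 0.17 (adjusted p = 0.393), which did not pass. With summed sets the HSPA1A values did not pass, at -0.95 (adjusted p = 0.119) for insulin in normal medium, 1.24 (adjusted p = 0.0501) for the medium with insulin present and 1.01 (adjusted p = 0.347) for the difference.

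HSPA1B was at 83.1 to 151 CPM (median 126) without insulin and 59.2 to 103 CPM (median 80.8) with it in normal medium. It was at 118 to 168 CPM (median 154) untreated and 127 to 169 CPM (median 135) with insulin in insulin-resistant medium. HSPA1B thus had the same low group as HSPA1A. It fell with insulin in normal medium by 0.57 ± 0.12 (adjusted p = 0.000209) and by 0.51 (adjusted p = 0.0012) without the 6 libraries. Within batches it changed by -0.62 (adjusted p = 0.0646, 22 April) and -0.58 (adjusted p = 0.0632, 11 April). With insulin present it was 0.88 ± 0.13 higher in insulin-resistant medium (adjusted p = 1.11e-06), and it passed the test within both batches, at 0.72 (adjusted p = 0.0435) and 1.15 (adjusted p = 0.00125). In the 11 April batch the normal medium group was again replicates 6 and 9, at 61.2 and 75.1 CPM. The difference of the insulin response between media was 0.54 ± 0.17 (adjusted p = 0.0143). In untreated cells the medium gave 0.34 ± 0.12 (adjusted p = 0.0339), lost without the 6 libraries at 0.17 (adjusted p = 0.287). With summed sets HSPA1B kept its call for the medium with insulin present, at 0.92 (adjusted p = 0.0257). It lost those for insulin in normal medium at -0.71 (adjusted p = 0.0640), the difference at 0.60 (adjusted p = 0.36) and the medium in untreated cells at 0.32 (adjusted p = 0.605).

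The split of reads between HSPA1A and HSPA1B is uncertain. Their longest open reading frames, 1926 bases each in the GRCh38 annotation, differ at 4 positions (99.79% identity) and encode the same protein, and both genes had counts more than 0.02 from a whole number in 36 of 36 libraries. Their sum does not depend on the split. Summed, they were at 170 to 269 CPM (median 251) and 89.6 to 193 CPM (median 149) in normal medium without and with insulin. In insulin-resistant medium the sum was 252 to 304 CPM (median 281) untreated and 233 to 336 CPM (median 270) with insulin. The summed level fell with insulin in normal medium by 0.69 ± 0.13 (adjusted p = 5.8e-05) and was 1.02 ± 0.14 higher in insulin-resistant than in normal medium with insulin present (adjusted p = 5.41e-07). The difference of the insulin response was 0.74 ± 0.19 (adjusted p = 0.00291). The sum did not pass for the medium in untreated cells, at 0.28 ± 0.13 (adjusted p = 0.115). Nor did it pass for insulin in insulin-resistant medium, at 0.04 ± 0.14 (adjusted p = 0.843).

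DNAJB1, the HSP40 partner that delivers unfolded protein to HSP70 and stimulates its ATPase, moved the same way by a smaller amount. It was at 110 to 134 CPM (median 125) untreated and 88.1 to 136 CPM (median 118) with insulin in normal medium, and at 141 to 154 CPM (median 145) and 141 to 157 CPM (median 151) in insulin-resistant medium. Every library in insulin-resistant medium lay above every library in normal medium. DNAJB1 was higher in insulin-resistant medium by 0.21 ± 0.06 in untreated cells (adjusted p = 0.00531) and by 0.38 ± 0.06 with insulin present (adjusted p = 5.25e-06). Without the 6 libraries these values were 0.20 (adjusted p = 0.00122) and 0.35 (adjusted p = 1.71e-06). Ranges that do not overlap were found for 5.47% and 12.2% of all genes in those comparisons, and for 8.37% and 15.1% without the 6. Insulin in normal medium lowered it by 0.15 ± 0.06 (adjusted p = 0.0372), except under hepatocyte scaling. The call was lost when any of the untreated replicates 1 to 3 of normal medium was left out (-0.15 to -0.14). Over all 36 fits that left out 1 library, the DNAJB1 value ran from -0.29 to -0.14. The 3 low libraries of the insulin group, 88.1 to 102 CPM, were again those without stromal transcript. Without the 6 the change was -0.15 (adjusted p = 0.00965), from a fit with its own scaling and a batch term. On the scale of the levels shown, the remaining insulin-stimulated libraries of normal medium had a median of 123 CPM, against 125 CPM untreated. With summed sets DNAJB1 kept its call for the medium with insulin present, at 0.49 (adjusted p = 0.0376), and lost those for the medium in untreated cells at 0.21 (adjusted p = 0.546) and for insulin in normal medium at -0.28 (adjusted p = 0.211).

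HSPH1, the HSP110 protein that exchanges nucleotide on HSP70 in disaggregation, was at 90.0 to 119 CPM (median 95.7) untreated and 100 to 143 CPM (median 114) with insulin in normal medium. It was at 111 to 149 CPM (median 117) and 117 to 153 CPM (median 126) in insulin-resistant medium. The groups overlapped in both media. HSPH1 was called higher with insulin in normal medium at 0.23 ± 0.07 (adjusted p = 0.0121), but without the 6 libraries it was 0.14 (adjusted p = 0.216), and leaving out 1 library ended the call in 28 of 36 fits, with values of 0.08 to 0.13. The call was kept in 8 fits, each without 1 library of normal medium. That library was untreated replicate 1, 2 or 3, or insulin-stimulated replicate 1, 3, 7, 8 or 9. Leaving out a library also recomputed the TMM scaling, and the part of this in the lost calls was not tested. In untreated cells it was 0.31 ± 0.07 higher in insulin-resistant medium (adjusted p = 0.00134), and 0.17 (adjusted p = 0.154) without the 6. Summed sets ended both HSPH1 calls, at 0.10 (adjusted p = 0.813) and 0.31 (adjusted p = 0.421). The 3 libraries without stromal transcript were the highest of that group, at 143 to 149 CPM against 111 to 121 CPM in the other 6.

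HSPA8, the constitutive HSP70 of the cytosol, and HSP90AA1, the inducible HSP90 that holds kinases and receptors in an activable state, passed the test in 0 of the 5 comparisons. HSPA8 ranged from 686 to 1222 CPM over all libraries, and insulin in normal medium gave -0.08 ± 0.08 (adjusted p = 0.486). HSP90AA1 ranged from 860 to 1464 CPM, and insulin in normal medium gave 0.00 ± 0.09 (adjusted p = 0.992). In untreated cells in normal medium, replicates 1 to 3 of both genes lay above the other 6. They were at 1153 to 1201 CPM for HSPA8 and 1253 to 1276 CPM for HSP90AA1, against 849 to 983 CPM and 860 to 1185 CPM in replicates 4 to 9. HSP90AA1 was highest, at 1438 to 1464 CPM, in the 3 untreated libraries without stromal transcript in insulin-resistant medium.

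**Figure D2:**
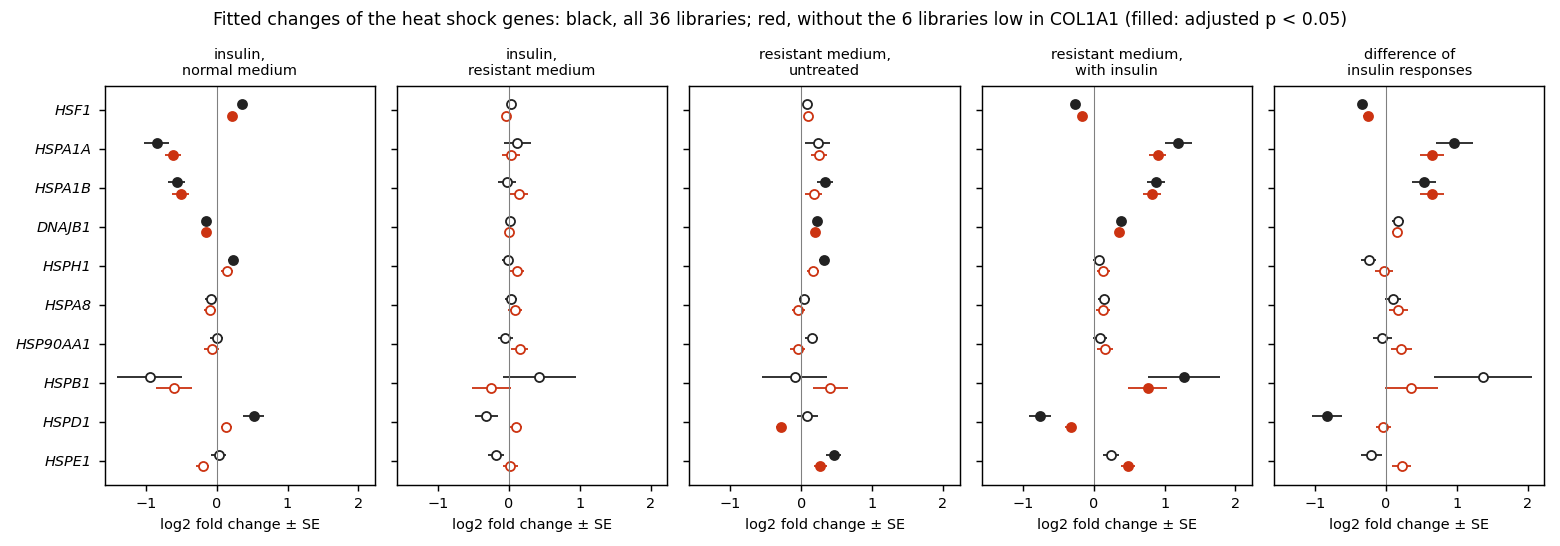
Fitted log2 fold changes (horizontal axis, ± standard error) of the 10 heat shock genes in the 5 comparisons, with all 36 libraries in black and without the 6 libraries low in COL1A1 in red; filled points have an adjusted p under 0.05. HSPA1A, HSPA1B, DNAJB1 and HSF1 kept filled points with insulin in normal medium in both fits, and HSPD1 lost its point there and in the last panel without the 6 libraries.

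HSPB1 (HSP27), a small chaperone that holds unfolded protein without ATP and is abundant in muscle and stromal cells, had the widest spread. It was at 136 to 571 CPM (median 208) untreated and 26.0 to 315 CPM (median 217) with insulin in normal medium. It was at 65.2 to 692 CPM (median 185) untreated and 226 to 616 CPM (median 510) with insulin in insulin-resistant medium. The levels fell into 3 bands that cut across the groups and were unevenly spread over them. The 6 libraries with almost no stromal transcript were at 26.0 to 70.9 CPM, below all of the other 30, which were at 131 to 692 CPM. The high band was at 454 to 692 CPM and held no insulin-stimulated library of normal medium. It was made of the untreated replicates 7 to 9 of either medium and the insulin-stimulated replicates 4 to 9 of insulin-resistant medium. In these 12 libraries FN1, which encodes fibronectin, was at 30773 to 37332 CPM, against at most 16635 CPM in the other 24, and the summed stromal markers were at 51611 to 69113 CPM, against at most 46781 CPM.

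HSPB1 was called higher in insulin-resistant than in normal medium with insulin present, at 1.28 ± 0.50 (adjusted p = 0.0445) and 0.76 ± 0.27 (adjusted p = 0.0301) without the 6 libraries. That call was lost without untreated replicate 2 or insulin-stimulated replicate 6 of normal medium, or insulin-stimulated replicate 4 of insulin-resistant medium, where it was 1.13 to 1.26, and with summed sets at 1.60 (adjusted p = 0.35). Insulin in normal medium gave -0.95 ± 0.46 (adjusted p = 0.115) and the medium in untreated cells -0.10 ± 0.46 (adjusted p = 0.917). Stromal markers moved with HSPB1 across libraries, and their part in its group differences was not tested.

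**Figure D3:**
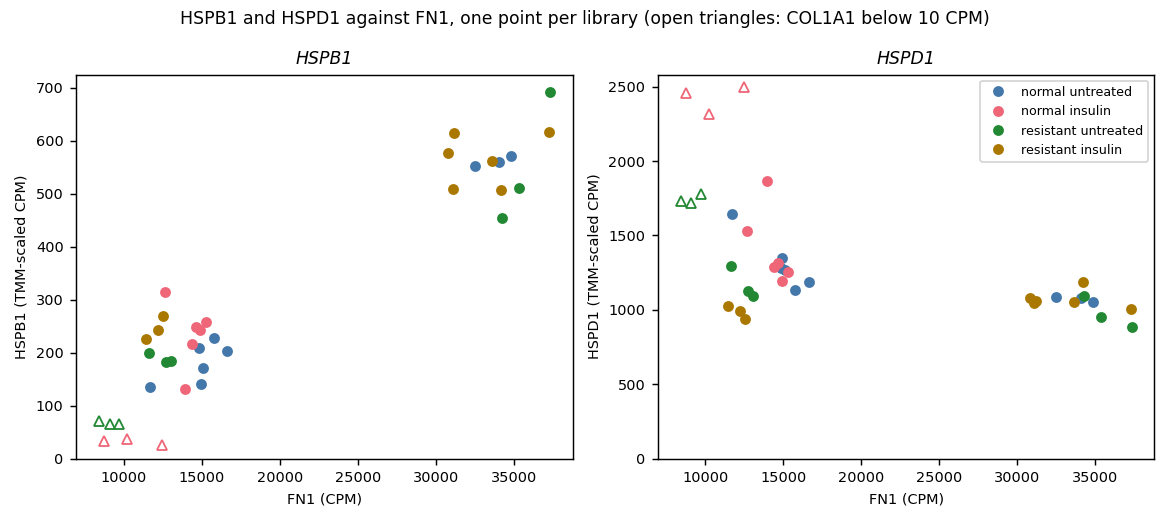
TMM-scaled CPM (vertical axis) of HSPB1 and HSPD1 against FN1 in CPM of the library total (horizontal axis), 1 point per library coloured by group; open triangles are the 6 libraries with COL1A1 below 10 CPM. The 12 libraries with FN1 at 30773 to 37332 CPM hold HSPB1 at 454 to 692 CPM, and the 6 triangles hold HSPB1 at 26.0 to 70.9 and HSPD1 at 1717 to 2502 CPM.

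HSPD1 (HSP60) and HSPE1 (HSP10) form the barrel and lid of the mitochondrial folding chamber and are transcribed from opposite strands of one promoter region. HSPD1 was at 1049 to 1647 CPM (median 1190) untreated and 1195 to 2502 CPM (median 1530) with insulin in normal medium. In insulin-resistant medium it was at 886 to 1779 CPM (median 1126) untreated and 941 to 1189 CPM (median 1049) with insulin. The high values of both mixed groups came from the 6 libraries without stromal transcript, at 2314 to 2502 CPM and 1717 to 1779 CPM, while the others reached at most 1866 CPM. HSPD1 was called higher with insulin in normal medium at 0.52 ± 0.15 (adjusted p = 0.00547), and at 0.14 ± 0.07 without the 6 it was not called (adjusted p = 0.165). It fell to 0.30 to 0.41, not called, when untreated replicate 4, 5, 7, 8 or 9 or insulin-stimulated replicate 2, 4, 5 or 6 of normal medium was left out. Summed sets gave 0.39 (adjusted p = 0.524).

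With insulin present HSPD1 was lower in insulin-resistant than in normal medium, by -0.75 ± 0.16 (adjusted p = 0.00023) with all libraries and by -0.33 ± 0.08 (adjusted p = 0.00174) without the 6. The groups did not overlap in either case, as for 12.2% of all genes with all libraries and 15.1% without the 6. Within batches HSPD1 was -0.52 (adjusted p = 0.325, 22 April) and -0.83 (adjusted p = 0.0172, 11 April). The 11 April value rests, in normal medium, on replicate 6, which is among the 6, at 2462 CPM and replicate 9 at 1530 CPM. In untreated cells the medium gave 0.09 ± 0.15 (adjusted p = 0.745) with all libraries and -0.29 ± 0.07 (adjusted p = 0.00441) without the 6, so the direction turned. Its insulin response differed between media by -0.84 ± 0.21 (adjusted p = 0.00278), and by -0.04 ± 0.11 (adjusted p = 0.859) without the 6. With summed sets HSPD1 passed in neither, at -0.67 (adjusted p = 0.177) for the medium with insulin present and -0.74 (adjusted p = 0.432) for the difference.

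HSPE1 was at 113 to 190 CPM (median 132) untreated and 110 to 210 CPM (median 132) with insulin in normal medium, and at 155 to 241 CPM (median 179) and 143 to 180 CPM (median 167) in insulin-resistant medium. Insulin gave 0.03 ± 0.11 (adjusted p = 0.887) in normal medium. In untreated cells HSPE1 was 0.45 ± 0.11 higher in insulin-resistant medium (adjusted p = 0.00166), and 0.27 ± 0.09 (adjusted p = 0.0327) without the 6, but the call was lost with summed sets at 0.45 (adjusted p = 0.140). With insulin present the medium gave 0.25 ± 0.11 (adjusted p = 0.0777), and 0.49 ± 0.10 (adjusted p = 0.000366) without the 6. There the groups did not overlap, as for 15.1% of all genes. The ratio of HSPD1 to HSPE1 CPM, which is not per length and is read only between groups, had medians of 8.67 and 10.9 in normal medium without and with insulin, and of 6.91 and 5.91 in insulin-resistant medium. Counts of HSPD1 and HSPE1 were more than 0.02 from a whole number in 32 and 34 of 36 libraries, and any split of reads with other gene records cannot be checked.

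Insulin-resistant medium, in untreated cells, raised 4 of the 10 genes (HSPA1B, HSPH1, DNAJB1 and HSPE1) and lowered 0. The share of all genes called was 21.9% (13.3% higher, 8.62% lower). The sum of HSPA1A and HSPA1B was not called there (adjusted p = 0.115). Without the 6 libraries DNAJB1 and HSPE1 were called higher and HSPD1 lower, against 26.7% of all genes (10.7% higher, 16% lower). With insulin present the medium gave 4 higher (HSPA1A, HSPA1B, DNAJB1 and HSPB1) and 2 lower (HSF1 and HSPD1), against 38.3% of all genes called (12% higher, 26.3% lower). Without the 6, HSPE1 joined those higher, giving 5 higher and 2 lower against 36% of all genes (17.8% higher, 18.2% lower). The difference of the insulin response between media passed for HSF1, HSPA1A, HSPA1B and HSPD1, against 29.8% of all genes (6.22% higher, 23.5% lower), and for HSF1, HSPA1A and HSPA1B without the 6, against 21.8% (12.4% higher, 9.37% lower). Summed sets left 0 of the 10 called for the medium in untreated cells and for the difference. They left 2 (HSPA1B and DNAJB1) for the medium with insulin present. The share of all genes called with summed sets was not taken. These comparisons share groups of libraries, so their calls are not independent of each other.

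The ER chaperones had a larger and one-sided response to insulin in normal medium. Of 20, 19 rose and 0 fell, with a median log2 fold change of 1.02, against 24.9% and 10.2% of all genes. Unlike those of the heat shock genes, the calls on this list were not also taken from summed sets or within batches. The same holds for the cytosolic and mitochondrial lists below. Without the 6 libraries 18 rose, with a median of 0.74, against 15.4% of all genes. The median of the 10 heat shock genes was -0.04 and that of all genes 0.03. The examples with the smallest adjusted p were SDF2L1, an ER chaperone cofactor, at 2.03 ± 0.15 (adjusted p = 1.58e-11), the secreted ER stress factor MANF at 1.76, the ER-resident HSP40 DNAJC3 at 1.33 and the ER HSP110 protein HYOU1 at 1.93, which without the 6 were 1.71, 1.41, 1.03 and 1.54. HSPA5, the ER HSP70 whose promoter is printed above and a gene named here for that reason, rose by 1.91 ± 0.17 (adjusted p = 2.53e-10), from 1158 ± 196 to 4351 ± 1625 CPM (SD, n = 9 each), and by 1.56 without the 6. In insulin-resistant medium insulin changed 0 of the 20, by a test that called 0% of all genes there. With insulin present, the resistant medium lowered 17 of 20 (median -1.06), against 26.3% of all genes. Without the 6 libraries it lowered 17 (median -0.79), against 18.2% of all genes. In untreated cells it raised SIL1 and P4HB only and lowered 0, against 13.3% and 8.62% of all genes.

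The other cytosolic chaperones lay between the 2 lists. Of 41, 23 rose and 2 fell with insulin in normal medium (median 0.25), against 24.9% and 10.2% of all genes. Without the 6 libraries 12 rose and 2 fell (median 0.12), against 15.4% and 18.1% of all genes. The examples were the HSP90 partner CHORDC1 at 0.67 ± 0.08 (adjusted p = 2.3e-08), the HSP40 DNAJA2 at 0.42, the chaperonin subunit CCT2 at 0.52 and the HSP110 relative HSPA4 at 0.26, which without the 6 were 0.43, 0.23, 0.31 and 0.13. In untreated cells the medium raised 5 and lowered 4, against 13.3% and 8.62% of all genes. Among them were HSF2, a second heat shock factor, at -0.32 ± 0.05 (adjusted p = 3.65e-05) and HSPA4L, an HSP110 relative, at 0.75 ± 0.14 (adjusted p = 0.00013). Without the 6 the medium raised 4 and lowered 8, against 10.7% and 16% of all genes, with HSF2 at -0.40 and HSPA4L at 0.39. With insulin present it raised 6 and lowered 22 (median -0.22), and 7 and 14 without the 6 (median -0.13), where the shares of all genes were those given above. With all libraries the difference of the insulin response was higher in insulin-resistant medium for 3 and lower for 20 (median -0.20). The shares of all genes were 6.22% and 23.5%. Without the 6 it was higher for 2 and lower for 3 (median -0.04), against 12.4% and 9.37% of all genes. HSPA6, the strictly stress-inducible HSP70 and named here after its values were seen, was near the detection limit at 0.0852 to 2.06 and 0.0858 to 2.97 CPM in normal medium without and with insulin. In insulin-resistant medium it was at 0 to 0.135 and 0.0756 to 0.181 CPM.

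**Figure D4:**
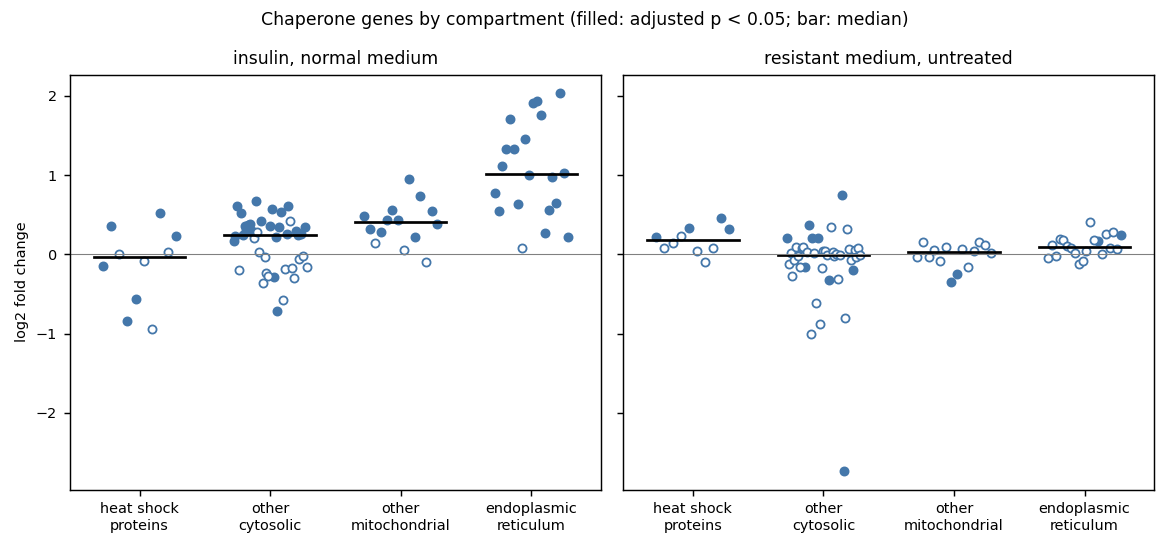
Log2 fold changes (vertical axis) of the 10 heat shock genes, 41 other cytosolic chaperones, 14 other mitochondrial chaperones and proteases and 20 ER chaperones, 1 point per gene, for insulin in normal medium (left) and insulin-resistant medium in untreated cells (right); filled points have an adjusted p under 0.05 and bars are medians. In the left panel the ER median is 1.02 and that of the heat shock genes -0.04, and the lowest point on the right is HSPA6.

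Among the other mitochondrial chaperones and proteases, 11 of 14 rose and 0 fell with insulin in normal medium (median 0.41). The shares of all genes were 24.9% and 10.2%. Without the 6 libraries 7 rose and 1 fell (median 0.21), against 15.4% and 18.1% of all genes. HSPA9, the mitochondrial HSP70, rose by 0.96 ± 0.10 (adjusted p = 8.29e-09) and by 0.65 (adjusted p = 1.46e-06) without the 6, while HSPD1 was not called without them. The other examples were the inner membrane protease subunit AFG3L2 at 0.48, the HSPA9 nucleotide exchange factor GRPEL1 at 0.55 and the matrix protease LONP1 at 0.73, which without the 6 were 0.25, 0.33 and 0.48. With insulin present, insulin-resistant medium lowered 11 of the 14 and raised 0 (median -0.52), against 26.3% and 12% of all genes. Without the 6 it lowered 10 and raised 1 (median -0.32), against 18.2% and 17.8% of all genes, and under hepatocyte scaling the median of the 14 with all libraries was 0.02. In untreated cells the medium lowered GRPEL2 and HSCB and raised 0, against 8.62% and 13.3% of all genes. Without the 6 it lowered 4 and raised 0, against 16% and 10.7% of all genes. The lists overlap with no heat shock gene, and no test compared one list with another.

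Another scaling moved several of these values. Libraries were also scaled to hepatocyte markers in place of TMM. The median of all genes then moved by 0.21 for insulin in normal medium. It moved by 0.36 for the medium in untreated cells and by 0.49 for the medium with insulin present. With TMM averaged over reference libraries it moved by -0.074, -0.009 and 0.065 in the same order. Under TMM, 2, 4 and 8 of the 12 markers were called lower in these comparisons, and 1, 0 and 1 higher. Without the 6 libraries 8, 8 and 6 were lower, and 0, 0 and 2 higher. A scale set by these markers carries their own changes. On that scale HSPA1A and HSPA1B gave -0.52 (adjusted p = 0.176) and -0.30 (adjusted p = 0.283) with insulin in normal medium, DNAJB1 turned to 0.08 (adjusted p = 0.838), and HSF1 stayed higher at 0.54 (adjusted p = 0.00921). With insulin present, HSPA1A, HSPA1B and DNAJB1 stayed higher in insulin-resistant medium, at 1.57, 1.33 and 0.85, while HSF1 turned to 0.25 (adjusted p = 0.228) and HSPD1 was -0.13 (adjusted p = 0.102). In the same comparison the median of the other cytosolic chaperones turned from -0.22 to 0.31 and that of the other mitochondrial genes from -0.52 to 0.02, while that of the ER chaperones was -0.47.

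As a description with no test, each heat shock gene was set beside the 3 genes whose log2 level was most alike across the 30 libraries with COL1A1 of at least 10 CPM. These libraries share groups and sets of replicates. For HSF1 they were YDJC (r = 0.93), DPH2 (0.93) and MYG1 (0.91), for HSPA1A IDH2 (0.94), ARSI (0.88) and EEIG1 (0.86), and for HSPA1B CNP (0.86), EBP (0.85) and SAMD10 (0.84). DNAJB1 was most like MICB (0.94), SLC31A2 (0.93) and KRT80 (0.90), and HSPH1 most like CKAP4 (0.89), AHSA1 (0.87), a co-chaperone of HSP90, and DCBLD2 (0.86). HSPA8 had VDAC1 (0.90), TPM3 (0.88) and JPT2 (0.86), and HSP90AA1 had PSMD1 (0.85), CLDN12 (0.83) and ZNF823 (0.83). HSPB1 had GLIPR2 (0.98), PDLIM4 (0.98) and TMEM45A (0.98). HSPD1 had HSP90AB1 (0.96), the constitutive cytosolic HSP90, with MISP (0.93) and KDM1A (0.93), and HSPE1 had SAA4 (0.87), TMEM205 (0.87) and CRYZ (0.86). Among the heat shock genes themselves the highest values were 0.84 for HSPA1A with DNAJB1 and 0.83 for HSPA1A with HSPA1B, followed by 0.79 for HSPA8 with HSPH1 and with HSP90AA1. The lowest was -0.65 for HSPB1 with HSPD1.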

How the data were processed

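Poly-A RNA was sequenced from 36 strand-specific libraries. The deposited table holds expected counts by Ensembl gene, with no scaling. The authors used STAR and Salmon on the build GRCh37, per the submitters' processing notes; versions, annotation and filters were not given in the sources used here. As written in the file, 15.5% of the values were not whole, and counts were rounded. Of 57771 genes, 51994 (90%) took a symbol from a GRCh38 annotation by Ensembl identifier.

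Groups came from the titles and batch dates from the labels: 4, 5, 4 and 3 libraries (untreated and insulin-stimulated in normal, then in insulin-resistant medium) on 22 April, 2, 2, 2 and 6 on 11 April, and 3, 2, 3 and 0 on 24 May, which was not fitted alone. edgeR 4.0.16 in R 4.3.3 (TMM, filterByExpr, robust quasi-likelihood F-test) was fitted to all 36 libraries with group and batch terms, with Benjamini-Hochberg adjustment over 17983 genes. Nothing says that the replicates came from separate cultures, so p-values measure the spread between these libraries. The lowest chi-square per gene between replicates was 4.20, so none looked like a duplicate. DESeq2 1.42.0, other scalings, filters and designs, and leaving out each library were alternatives.

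The members and lists were chosen with earlier results of these data known. Named genes are the 10 members, at most 4 per other list with the smallest adjusted p in a comparison, and for each member the 3 most correlated genes of at least 5 CPM; exceptions are stated. Promoters are from RefSeq (GRCh38.p14), a build other than that of the counts, and all 9 members searched were matched by symbol.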

Additional observations from a re-analysis of the deposited data

Results flagged for a closer look

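The insulin response of 4 of the 10 heat shock genes differed between the media by the test of the difference itself (edgeR's quasi-likelihood test). In insulin-resistant minus normal medium the log2 difference was -0.34 for HSF1, 0.96 for HSPA1A, 0.54 for HSPA1B and -0.84 for HSPD1. Without the 6 libraries that had almost no stromal transcript the values were -0.26, 0.65, 0.65 and -0.04, of which that of HSPD1 was not called (adjusted p = 0.859). With sets of 3 replicates summed they were -0.30, 1.01, 0.60 and -0.74, and none was called.

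Among the 40 sets of 9 libraries, 1 for each gene and group, 5 held a library far from the other 8, where chance gives about 1 in 20 sets. DNAJB1 was lowest in replicate 5 of untreated cells in normal medium, at 110 CPM against 123 CPM in the nearest library. It was highest in replicate 6 of untreated cells in insulin-resistant medium, at 154 CPM against 147 CPM. Replicate 6 of untreated cells in normal medium was high for HSPD1, at 1647 CPM against 1345 CPM, and for HSPE1, at 189.9 CPM against 148 CPM. Replicate 6 of insulin-stimulated cells in normal medium, a library with almost no stromal transcript, was high for HSPE1, at 210.4 CPM against 157 CPM.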

How the results depend on the processing

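Over 50 values (10 heat shock genes in 5 comparisons) and 14 alternatives, 516 kept their direction and side of the threshold, 76 dropped below it, 29 rose past it and 59 changed sign. Most sign changes were of values near 0 that were never called, and the called values that changed sign were DNAJB1 with insulin in normal medium and HSF1 in the medium comparison with insulin present, both under scaling to hepatocyte markers.

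The number of heat shock genes called with insulin in normal medium, 6, was 3 with hepatocyte scaling, 0 with sets of 3 replicates summed, and 0 within the 22 April and 0 within the 11 April batch. For the medium in untreated cells, 4 became 7 with hepatocyte scaling and 0 with summed sets and within either batch. For the medium with insulin present, 6 became 2 with summed sets (HSPA1B at 0.92, adjusted p = 0.0257, and DNAJB1 at 0.49, adjusted p = 0.0376) and 2 within 22 April. For the difference of the insulin response, 4 became 1 with hepatocyte scaling and 0 with summed sets and within either batch. These fits hold fewer libraries, except for the hepatocyte scaling, for which the cause was not tested. The share of all genes called was not taken for these fits, the replicate block or the leave-one-out fits. Their counts therefore cannot be set against it. Leaving out each library gave counts of 4 to 6, 0 to 0, 3 to 4, 5 to 8 and 4 to 5 in the order insulin in normal and in insulin-resistant medium, medium untreated and with insulin, and difference.

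The main fit did not pair libraries by replicate number. Over 54 pairs of groups and numbers, same-numbered libraries correlated at -0.82 to 0.74 (median 0.12), with 30 over 0.1. Libraries of other numbers had a median of -0.0057, and 18 of 108 correlated best with their own number. Sets of 3 replicates differed in stromal transcript between groups, so these values cannot decide whether libraries were paired. With the number as a replicate block, the counts called were 5, 0, 4, 6 and 6. Under the block DNAJB1 with insulin in normal medium was -0.14 (adjusted p = 0.0564), and HSPA1B with insulin in insulin-resistant medium turned to 0.028.

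The other sign changes were as follows, in log2 units. For insulin in normal medium, HSPE1 and HSP90AA1 were -0.050 and -0.081 with a filter of 1 CPM in 9 libraries, -0.044 and -0.070 with DESeq2, with its size factors in edgeR and with TMM averaged over references, -0.11 and -0.12 with no filter, -0.029 and -0.054 with only the groups compared, -0.11 and -0.13 with summed sets, -0.26 and -0.066 within 22 April, and -0.20 and -0.070 without the 6 libraries; HSP90AA1 was -0.062 within 11 April. Hepatocyte scaling gave 0.080 for DNAJB1 and 0.15 for HSPA8.

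For insulin in insulin-resistant medium, hepatocyte scaling gave 0.16 for HSPD1, 0.24 for HSPE1, 0.37 for HSP90AA1, 0.38 for HSPH1 and 0.39 for HSPA1B. Without the 6 libraries HSF1 was -0.037, HSPB1 -0.25, HSPE1 0.021, HSPD1 0.098, HSPH1 0.11, HSPA1B 0.14 and HSP90AA1 0.15. With no batch term HSF1 was -0.026 and HSPH1 0.042, with summed sets -0.066 and 0.0048, within 11 April HSPH1 was 0.0041, and within 22 April HSPA8 was -0.047 and HSPA1A -0.079. For the medium with insulin present, HSF1 was 0.25 with hepatocyte scaling. In untreated cells HSPB1 was 0.47 with hepatocyte scaling and 0.41 without the 6, where HSPA8 was -0.043, HSP90AA1 -0.053 and HSPD1 -0.29; HSF1 was -0.029 within 22 April. For the difference, HSP90AA1 was 0.012 with the filter of 1 CPM, 0.033 with DESeq2 and with its size factors, 0.022 with averaged TMM, 0.081 with no filter, 0.079 with summed sets, 0.16 with hepatocyte scaling and 0.22 without the 6; HSPE1 was 0.052 with hepatocyte scaling, 0.036 within 22 April and 0.22 without the 6. A fit of only the groups compared gives no value for the difference.

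Leaving out 1 library changed signs for insulin in insulin-resistant medium in DNAJB1 (-0.0080 to 0.026), HSF1 (-0.0065 to 0.031), HSPA8 (-0.016 to 0.031), HSPA1B (-0.078 to 0.029) and HSPH1 (-0.053 to 0.0081). It did so for insulin in normal medium in HSP90AA1 (-0.17 to 0.035) and HSPE1 (-0.19 to 0.057), for the medium in untreated cells in HSPB1 (-0.33 to 0.037) and HSPD1 (-0.019 to 0.13), and for the difference in HSP90AA1 (-0.084 to 0.11) and HSPE1 (-0.24 to 0.026). HSPA1B in the medium comparison of untreated cells lost its call in 20 of 36 such fits (0.27 to 0.34). In 28 fits HSPE1 in the medium comparison with insulin (0.31 to 0.46) and DNAJB1 in the difference (0.23 to 0.29) gained one, in 13 HSPA8 with insulin present (0.24 to 0.26), and in 3 each HSPA8 with insulin in normal medium (-0.25 to -0.23) and HSPH1 in the difference (-0.28 to -0.27).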
